A study of Caenorhabditis elegans with 8 samples.

Results

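Embryos lacking seip-1, the worm gene for seipin, were compared with wild-type embryos of Caenorhabditis elegans across all genes measured on single-colour microarrays. The comparison was chosen by the sample labels and covers 4 of the 8 arrays of the series: 2 of wild-type (N2) embryos and 2 of embryos labelled as a seip-1 knockout. The other 4 arrays hold young adults of the same genotypes. The knockout allele and its outcrossing are not given in the sources used here. Embryos of both genotypes were released with hypochlorite from gravid adults collected 52 h after the L1 stage, and each RNA sample was a pool derived from about 40000 young adults. The age of the embryos in each pool is not given in the sources used here, so embryo age and genotype cannot be told apart in these data. The labels do not say whether the 2 samples of a group came from separate cultures. The p-values therefore measure only the spread between samples of a group, estimated over all 8 arrays, young adults included.

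Seipin is a membrane protein of the endoplasmic reticulum that sits where lipid droplets form, and the title of the study asks about the eggshell. The worm embryo starts with RNA that the oocyte supplied, including regulators of the first cell divisions and of the germline. Zygotic transcription then begins with short-lived regulators that assign cell fates, and tissue-specific regulators follow before muscle, gut, neuron and skin genes are switched on. The late embryo elongates, lays down the first cuticle and digests its way out of the eggshell. Pooled embryos give 1 level per gene over all stages and tissues present, so fewer cells of a type and less RNA per cell cannot be told apart.

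Before scaling, the arrays of the 2 genotypes differed in signal. The median processed signal was 74.7 and 77.4 intensity units on the wild-type arrays and 265 and 214 on the knockout arrays, and 65.7% and 66.6% against 75.5% and 71.9% of probes were well above background. Levels are given below as log2 of the signal minus the 75th percentile of the same array, and differences as knockout minus wild type on that log2 scale. Every ± is a standard error of limma's moderated linear model with n = 2 arrays in each group. The spread behind it is estimated over all 8 arrays, so that of the adult arrays enters each ±. The small number of arrays limits how precise a value is. The labelled stage was checked against markers. All 24 maternal cell fate regulators and all 26 first zygotic regulators tested were well above background on all 4 embryo arrays. All 24 maternal regulators were also measured in the young adults, so they do not set embryos apart from adults. Of the zygotic regulators 8 were measured there. The yolk protein gene vit-6 and the adult cuticle collagen gene col-19 were not well above background on any embryo array. The brighter vit-6 probe read 5.23 and 3.40 units in wild-type and 8.03 and 6.39 units in knockout embryos, against 190412 to 223047 units in the 4 adult samples. Other genes of these kinds, vit-1, vit-2, vit-4, vit-5, col-7 and col-62, had a probe well above background on all 4 embryo arrays. The vit-1 probe read 45.5 and 44.5 units in wild-type and 504 and 356 units in knockout embryos, against 252112 to 372972 units in adults.

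The labels were checked on the targeted gene. In wild-type embryos the seip-1 level was 1.25 and 1.40, and in the knockout it was -8.77 and -8.26. Neither knockout array was well above background for its probe, and seip-1 was at least 311-fold lower in the knockout (limma adjusted p = 1.06e-05).

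Most genes differed between the genotypes, and they fell into 2 groups that moved apart. Of 15410 genes tested, 13142 passed limma's test at an adjusted p under 0.05, which is 85.3%. In all 13142 called genes the 2 groups did not overlap, so separate groups are no added support for a single called gene. Of all tested genes 44.7% were called higher in knockout embryos (6895 genes) and 40.5% were called lower (6247 genes). The excess of rises depended on genes dim in wild type: 1224 of the genes called higher had no wild-type array above background. Among the 13397 genes above background on all 4 embryo arrays 5403 were called higher and 5962 lower, with a median of -0.17. The distribution of differences had a peak on each side of 0, between -1.25 and -1 on the lower side and between 2.75 and 3 on the higher side. The median rise among the genes called higher was 2.42 and the median of those called lower was -1.40. Rises of at least 4-fold were seen in 4423 genes and falls of that size in 1374. At 8-fold the counts were 1499 and 63. The median of all genes was 0.15, and it moved to 0.02 with quantile normalization, to -0.10 with normexp background correction and to -0.90 when each array was scaled to its median probe. Under that median scaling 5008 genes were called higher and 8355 lower, so that 37.5% of calls were rises instead of 52.5%. Median scaling lowered the differences by 1.05, so a smaller rise turns sign under it. The lists below were read against the all-gene median and these background shares.

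**Figure D1:**
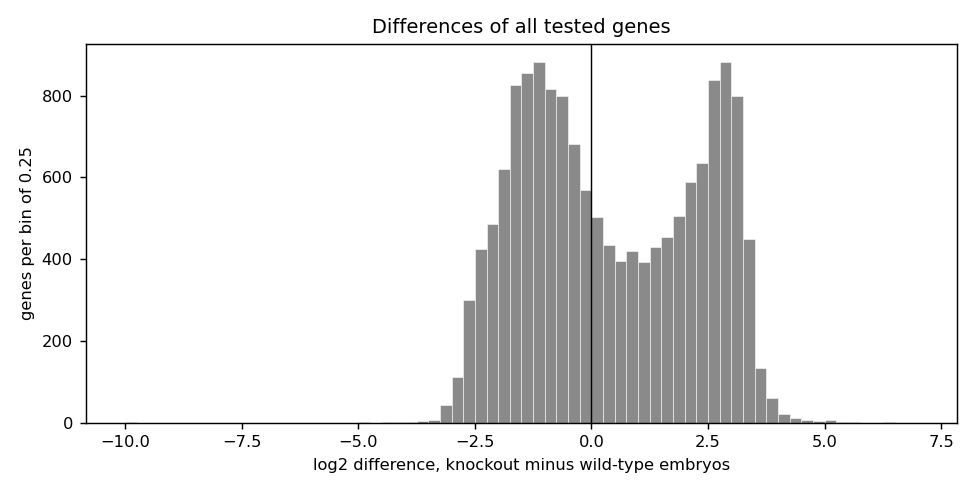
Number of genes (vertical axis) in bins of 0.25 of the log2 difference between knockout and wild-type embryos (horizontal axis), for all 15410 genes tested. Bars show 1 peak between -1.25 and -1 and another between 2.75 and 3, and the single bar at the far left holds seip-1.

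Maternal regulators of cell fate were lower in knockout embryos. Of 24 tested members 23 fell and 0 rose, with a median difference of -2.24, against 0.15 over all genes and 40.5% of all genes called lower. The zinc-finger gene pie-1, which keeps germline cells transcriptionally silent, was at 3.55 and 3.76 in wild type and at 1.08 and 1.31 in the knockout, a fall of 2.46 ± 0.23 (adjusted p = 8.48e-05). Both knockout arrays lay below both wild-type arrays. The polarity-dependent RNA-binding gene mex-5 fell by 2.39 ± 0.20 and mex-1, which restricts blastomere fates, by 2.87 ± 0.24, the largest fall of the list. The early embryo regulators named next were chosen after their values were seen. The RNA-binding gene pos-1 went from 6.42 and 6.48 to 4.22 and 4.47, and skn-1, which encodes a transcription factor of the EMS lineage, from 2.03 and 2.08 to 1.42 and 1.58. The falls were 2.11 ± 0.24 for pos-1 and 0.55 ± 0.13 for skn-1. The 3 skn-1 probes ran from -0.63 to 0.19, so its fall was not shared by all of them.

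Germline components fell with them. All 12 P granule components fell, with a median of -2.30. The P granule scaffold gene pgl-1 was at 2.72 and 2.96 in wild type and at 0.19 and 0.28 in the knockout. The germline helicase gene glh-1 changed less, from 3.13 and 3.06 to 1.66 and 1.86, and fell by 1.34 ± 0.14. Neither gene had overlapping groups. All 23 genes of meiotic chromosome pairing and recombination fell, with a median of -2.53 and the deepest fall in him-5 (-3.0 ± 0.19), which promotes crossing over on the X chromosome. Of 21 Argonautes and small RNA genes 19 fell and 1 rose, with a median of -1.77. The piRNA Argonaute gene prg-1 fell from 3.17 and 3.40 to 1.03 and 1.18. The exception was the microRNA Argonaute gene alg-1, which rose by 1.81 ± 0.13, from -0.65 and -0.81 to 1.09 and 1.07. A second alg-1 probe gave 0.80.

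Eggshell genes, which the oocyte transcribes, were mostly lower. The list of eggshell and permeability barrier genes had 22 tested members, of which 16 fell and 4 rose, with a median of -1.64. The egg activation gene egg-3 was at 2.59 and 2.87 in wild type and at -0.06 and 0.28 in the knockout, and fell by 2.62 ± 0.23. The chitin synthase gene chs-1 fell by 1.63 ± 0.26, from 0.04 and 0.43 to -1.50 and -1.29. No knockout array reached the level of a wild-type array for either gene. The 4 that rose were mlt-11 (2.13 ± 0.41), a protease inhibitor gene with a known role in moulting, sqv-4 (1.98 ± 0.21), which makes a sugar nucleotide for glycosaminoglycans, and the fatty acid synthesis genes pod-2 (1.58) and fasn-1 (1.26). The last 3 were named after their values were seen.

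Cell polarity genes fell less evenly. Of 16 members 12 fell and 1 rose, with a median of -0.99 (-0.65 with quantile normalization). The cortical polarity gene par-2 fell by 1.41 ± 0.19 and par-6 by 0.92 ± 0.16. The anillin-like gene ani-2 of the germline fell the most, by 2.32 ± 0.18. The kinase gene par-1, which also acts in later epithelia, rose by 1.38 ± 0.13, from 0.96 and 1.06 to 2.37 and 2.41.

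Genes of dividing cells were mostly lower. All 24 DNA replication genes fell (median -2.03), as did all 24 kinetochore and segregation genes (-1.59, or -1.05 with quantile normalization) and all 26 nuclear pore and envelope genes (-1.57, or -1.04). Of 22 genes of the mitotic engine 21 fell and 1 rose (median -1.71), and of 21 centrosome and spindle genes 19 fell and 1 rose (median -1.36, or -0.77 with quantile normalization). The riser of the spindle list was klp-7, a microtubule depolymerase gene, at 0.52 ± 0.16 (adjusted p = 0.0184, and -0.53 under median scaling), and that of the mitotic list was fzr-1. The mitotic kinase gene cdk-1 was at 5.07 and 5.10 in wild type and at 2.75 and 3.04 in the knockout, a fall of 2.19 ± 0.21 (adjusted p = 8.82e-05). The replication clamp gene pcn-1 fell by 1.56 ± 0.23, from 6.59 and 6.54 to 4.76 and 5.25. The knockout arrays were below the wild-type arrays in both. In these genes knockout array 1 lay lower than array 2.

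Control of the G1 phase and of cell cycle exit was mostly lower. Of 13 genes of cell cycle exit and G1 control 10 fell and 2 rose (median -1.13). The cyclin-dependent kinase inhibitor gene cki-1, which stops cells in G1, rose by 1.29 ± 0.21, from 2.39 and 2.11 to 3.46 and 3.62. The cyclin D gene cyd-1, which drives cells out of G1, fell by 0.74 ± 0.26 (adjusted p = 0.0329). The cyclin-dependent kinase inhibitor gene cki-2 and the retinoblastoma-like gene lin-35, which also restrain division and were named after their values were seen, fell by 0.90 and 1.65. The other rise was in fzr-1, whose product activates the anaphase-promoting complex in G1, at 0.39 ± 0.15 (adjusted p = 0.0437), and it was -0.66 under median scaling.

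The first zygotic regulators also fell. Of 26 members 25 fell and 1 rose, with a median of -2.33. The GATA factor gene med-1, which starts the mesendoderm programme, fell by 3.15 ± 0.17, from -1.34 and -1.13 to -4.33 and -4.44. The T-box gene tbx-37, which acts in the anterior pharynx lineage, fell by 2.37 ± 0.20, from 0.67 and 0.64 to -1.95 and -1.49. Both genes remained well above background in the knockout, with no overlap between groups. The Wnt gene cwn-1 rose by 0.72 ± 0.14, a change that turned to -0.32 under median scaling. T-box genes and the med genes have close relatives, and cross-hybridisation was not measured.

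Regulators of the endoderm changed in both directions. The list had 10 tested members, of which 7 rose and 3 fell, with a median of 0.88 that turned to -0.17 under median scaling and was 0.40 with normexp correction. The early GATA gene end-3 was at -0.08 and 0.18 in wild type and at -2.85 and -2.53 in the knockout, and fell by 2.74 ± 0.33. Its partner end-1 was at 0.93 and 0.83 against -1.58 and -0.99, and fell by 2.17 ± 0.22. Both were low in both knockout samples. The third fall was in elt-7, a later GATA gene of the gut, which was at 0.95 and 0.84 against -0.22 and 0.19, a fall of 0.90 ± 0.17. The lasting gut regulator elt-2 was at -0.33 and -0.56 against 0.60 and 0.59, a rise of 1.04 ± 0.14 that was -0.01 under median scaling. The nuclear receptor gene nhr-8 rose by 2.76 ± 0.16 and the gut esterase gene ges-1, a product of the differentiated intestine, by 1.60 ± 0.14. The other rises were in pqm-1 (2.47), ceh-60 (1.298), dve-1 (0.72), nhr-49 (0.41) and elt-4, which was at least 2.80-fold higher, and those of dve-1 and nhr-49 are smaller than the shift of median scaling. These 5 genes and elt-7 were named after their values were seen.

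**Figure D2:**
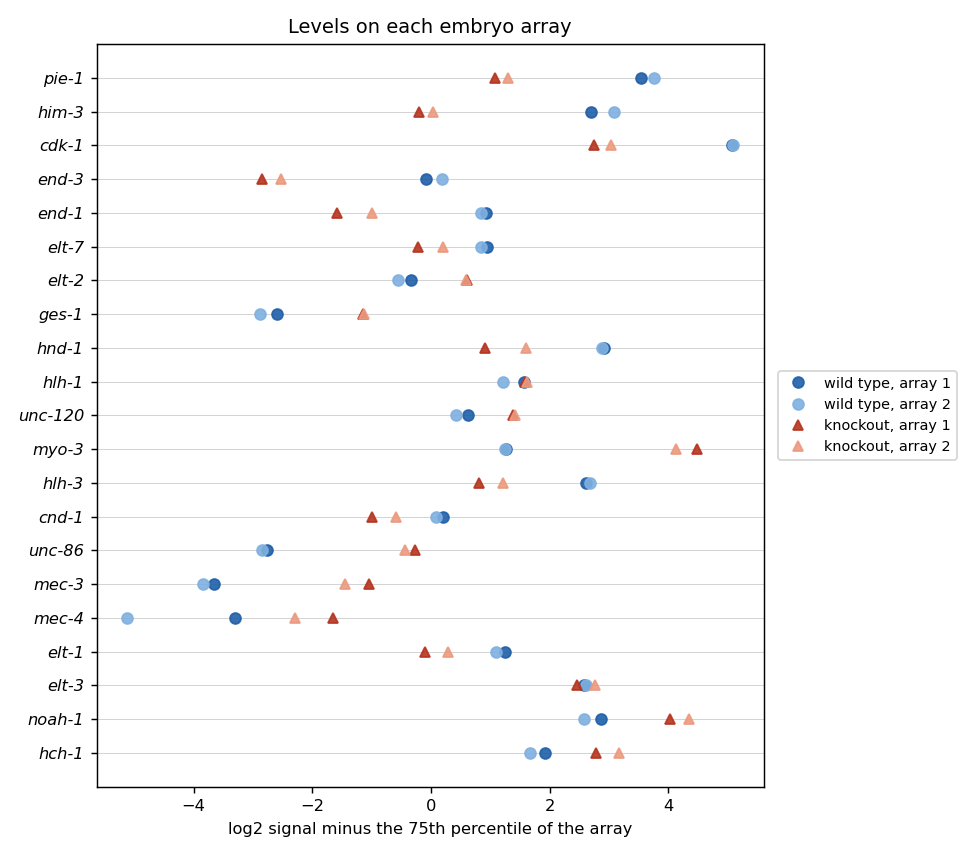
Level of 21 genes on each embryo array, as log2 signal minus the 75th percentile of the array (horizontal axis), with circles for the 2 wild-type arrays and triangles for the 2 knockout arrays. Early genes such as pie-1 and end-3 lie lower in the knockout, the groups of elt-3 overlap, those of hlh-1 nearly touch, and late genes such as myo-3 and mec-3 lie higher. Several genes, among them hnd-1, cnd-1 and mec-3, were chosen after their values were seen.

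Regulators of muscle and mesoderm changed in both directions. Of 14 members 9 rose and 3 fell, with a median of 1.5. These were shares of 64.3% and 21.4%, beside 44.7% and 40.5% of all genes. The T-box gene tbx-9, active in early mesoderm and skin precursors, fell by 2.21 ± 0.32, and hnd-1, an early helix-loop-helix gene of muscle lineages, fell by 1.65 ± 0.64 (adjusted p = 0.0461). The muscle determination gene hlh-1 was at 1.57 and 1.21 against 1.58 and 1.62, a difference of 0.21 ± 0.19 that did not pass (adjusted p = 0.312). The groups nearly touched for hlh-1. Its partner unc-120 rose by 0.88 ± 0.15, and that rise turned to -0.16 under median scaling. The FGF receptor gene egl-15, used by migrating muscle precursors, rose by 3.18 ± 0.14, from -2.83 and -2.81 to 0.46 and 0.25. Of these, hnd-1 was named after its value was seen.

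In the pharynx list 6 of 12 members rose and 3 fell, with a median of 0.60 that turned to -0.45 under median scaling and was 0.92 with quantile normalization. The shares were 50% and 25%, beside 44.7% and 40.5% of all genes. The organ selector gene pha-4 was at 2.80 and 2.53 against 2.84 and 3.03 and did not pass (0.27 ± 0.16, adjusted p = 0.145). Its downstream homeobox genes ceh-22 and ceh-24, which act in pharyngeal muscle, rose by 2.51 ± 0.26 and 3.23 ± 0.35. The Notch receptor gene glp-1, which induces pharynx fates in the early embryo and also acts in the germline, fell by 2.56 ± 0.20.

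In the epidermal list 7 of 14 members rose and 2 fell, with a median of 0.35 that turned to -0.70 under median scaling and was 0.66 with quantile normalization. These were shares of 50% and 14.3%, beside 44.7% and 40.5% of all genes. The GATA gene elt-1, which specifies epidermis, fell by 1.08 ± 0.24, from 1.24 and 1.09 to -0.11 and 0.28. Its target elt-3 was at 2.58 and 2.61 against 2.47 and 2.76, and the groups overlapped (0.02 ± 0.15, adjusted p = 0.894). The cell fusion gene eff-1, which merges epidermal cells into syncytia, rose by 2.87 ± 0.13, from -2.04 on both wild-type arrays to 0.91 and 0.75. The grainyhead gene grh-1, an epidermal regulator named after its value was seen, was at least 6.41-fold higher in the knockout, with wild type below background.

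Neural regulators changed in both directions. Of 29 members 19 rose and 8 fell, with a median of 1.85 (1.21 with quantile normalization and 1.11 with normexp correction). The proneural gene hlh-3 was at 2.62 and 2.68 against 0.80 and 1.21 and fell by 1.64 ± 0.30. The proneural genes ngn-1, cnd-1 and lin-32 fell by 1.27 ± 0.23, 0.93 ± 0.31 and 0.68 ± 0.26, while hlh-14 was at -0.90 ± 0.49 and did not pass (adjusted p = 0.124). The other falls were in ztf-11 (-1.56), ceh-36 (-1.12), hlh-2 (-1.07) and ceh-43 (-0.93). The gene unc-86, a POU factor of several neuron classes, went from -2.77 and -2.85 to -0.28 and -0.45, a rise of 2.45 ± 0.19. Its partner in touch neurons, mec-3, rose by 2.50 ± 0.18, unc-3, a factor of cholinergic motor neurons, by 2.74 ± 0.13, and unc-4, a homeobox gene of motor neurons, by 3.35 ± 0.27. Of these, ngn-1, cnd-1, lin-32, ztf-11, ceh-36, hlh-2, ceh-43, mec-3 and unc-3 were named after their values were seen.

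Timing and sex genes behaved differently from each other. Of 20 genes of sex determination and dosage compensation 18 fell and 0 rose by their brightest probe, with a median of -1.36. The sex determination gene tra-1, named after its values were seen, had probes called in opposite directions, at -1.32 and 2.43. The sex switch gene xol-1 fell by 2.07 ± 0.32 and sdc-2, which recruits the dosage compensation complex to the X chromosomes, by 1.19 ± 0.17. Of 11 heterochronic genes, which time larval development, 6 rose and 2 fell, with a median of 0.60 that turned to -0.44 under median scaling and was 0.22 with normexp correction. These were shares of 54.5% and 18.2%, beside 44.7% and 40.5% of all genes. The early larval gene lin-14 was at least 11.4-fold higher in the knockout, since no wild-type array was above background for it. Its relative in the pathway, hbl-1, rose by 2.57 ± 0.13, from 1.73 and 1.75 to 4.19 and 4.42. The RNA-binding gene lin-28 was at 2.13 and 2.19 against 1.92 and 1.98 (-0.21 ± 0.19, adjusted p = 0.323). A second lin-28 probe gave 0.61.

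Genes of contractile tissue were higher in knockout embryos. Of 25 body wall muscle sarcomere genes 24 rose and 0 fell, with a median of 2.80. The body wall myosin gene myo-3 was at 1.27 and 1.25 in wild type and at 4.48 and 4.13 in the knockout, a rise of 3.04 ± 0.20 (adjusted p = 2.69e-05). The other body wall myosin gene, unc-54, went from 0.02 and 0.10 to 3.24 and 2.79. In both, the knockout arrays stood clear of the wild-type arrays, with array 1 the higher. Of 16 genes of pharynx structure and glands 15 rose and 1 fell, with a median of 3.17, and 2 were above background only on the knockout arrays. The pharyngeal myosin genes myo-2 and myo-1 rose by 3.27 ± 0.25 and 3.37 ± 0.28. The exception was pqn-75, a gland gene, at -0.87 ± 0.18.

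Of 24 intestine function genes 21 rose and 3 fell, with a median of 3.05. The intermediate filament gene ifb-2 of the gut lining rose by 3.14 ± 0.38, from 0.48 and 0.45 to 3.79 and 3.41. The metallothionein gene mtl-2 rose by 3.76 ± 0.19, and it was above background on 1 of the 2 wild-type arrays. The gut granule gene glo-1, whose product builds lysosome-related organelles, fell by 1.25 ± 0.15.

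Neuronal function genes were higher across classes. Of 17 genes of transmitter synthesis and transport 14 rose and 1 fell (median 2.73, or 1.17 with normexp correction), of 28 synaptic vesicle genes 23 rose and 3 fell (2.21), and of 12 touch receptor neuron genes 10 rose and 0 fell (2.78, or 1.45 with normexp correction). All 39 sensory cilium genes tested rose, with a median of 2.79, against 44.7% of all genes called higher. Above background only on the knockout arrays were 2 transmitter genes, 1 touch neuron gene and 1 cilium gene. The intraflagellar transport gene osm-6 went from -2.23 and -2.31 to 0.62 and 0.48, a rise of 2.82 ± 0.13 (adjusted p = 1.99e-05). The dynein gene che-3, which carries cargo back from the cilium tip, rose by 3.20 ± 0.14. The GABA synthesis gene unc-25 rose by 3.25 ± 0.24, from -1.84 and -1.92 to 1.74 and 1.02. Groups were separate in each of these 3 genes.

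Several genes of these lists did not rise. The synaptobrevin gene snb-1 was at 4.46 and 4.59 in wild type and at 4.18 and 4.08 in the knockout, and fell by 0.40 ± 0.14 (adjusted p = 0.0277), with 0.15 under quantile normalization. The beta-tubulin gene mec-7 was at 2.39 and 2.26 against 2.30 and 2.19 (-0.08 ± 0.13, adjusted p = 0.578), while the touch channel gene mec-4 rose by 2.25 ± 0.55. The mec-4 wild-type arrays were far apart, at -3.31 and -5.13, against -1.65 and -2.30 in the knockout. The tyrosine decarboxylase gene tdc-1 fell by 2.04 ± 0.22 by its brighter probe, while its other probe gave 2.77, so its direction is not settled by this array. In axon guidance, 20 of 32 genes rose and 2 fell (median 0.59, or -0.45 under median scaling and 1.09 with quantile normalization), with the netrin gene unc-6 at 1.04 ± 0.16 and its receptor gene unc-40 at -0.32 ± 0.18 (adjusted p = 0.126). The unc-6 rise was -0.01 under median scaling.

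Chemosensory and glial genes were mostly higher. Of 20 chemosensory signalling genes 16 rose and 2 fell (median 2.24, or 0.98 with normexp correction and 1.32 with quantile normalization). Of these 20, 13 were above background on all 4 embryo arrays and 5 only on the knockout arrays. The guanylate cyclase gene gcy-8 of thermosensory neurons rose by 3.09 ± 0.30, from -4.59 and -4.61 to -1.28 and -1.74. All 8 glial genes rose (median 2.47), among them daf-6, which shapes the channel of sensory organs, at 3.04 ± 0.15.

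Epithelial genes rose in most lists. Of 23 epidermal junction and attachment genes 18 rose and 1 fell (median 2.33). The junction gene ajm-1 rose by 1.89 ± 0.17 and the spectraplakin gene vab-10, which anchors muscle through the skin, by 2.86 ± 0.24, from 0.21 and 0.20 to 3.25 and 2.89. The beta-catenin gene hmp-2, which is also supplied by the mother, fell by 0.53 ± 0.20 (adjusted p = 0.0436) and was at 0.16 under quantile normalization. Of 22 excretory canal genes 17 rose and 2 fell (median 2.2, or 0.90 with normexp correction and 1.28 over the 19 members above background on all 4 arrays). The canal lumen gene exc-4 was at -0.27 ± 0.21 (adjusted p = 0.257), and the water channel gene aqp-8, below background in wild type, was at least 2.19-fold higher in the knockout.

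Gap junction and scavenger genes changed in both directions. Of 25 innexin genes 17 rose and 6 fell (median 2.18). The neuronal and muscle innexin genes unc-7 and unc-9 rose by 3.02 ± 0.21 and 3.24 ± 0.19. The germline innexin gene inx-14 fell by 2.77 ± 0.21, from 3.31 and 3.56 to 0.59 and 0.74, and its germline partners inx-22 and inx-21, named after their values were seen, fell by 2.66 ± 0.20 and 2.41 ± 0.21. The other 3 that fell were inx-2 (-1.18), inx-3 (-0.98) and inx-11 (-0.80). Of 10 coelomocyte and scavenging genes 5 rose and 4 fell (median 0.28, with -0.77 under median scaling and -0.01 when arrays were scaled over probes above background on all 8 arrays). These shares of 50% and 40% were near the 44.7% and 40.5% of all genes. The coelomocyte genes cup-4 and unc-122 rose by 2.87 ± 0.14 and 3.21 ± 0.21. The yolk receptor gene rme-2 of oocytes fell by 1.43 ± 0.26, and the other falls were in cup-5 (-1.33), rme-6 (-0.74) and ced-1 (-0.65). These innexin and uptake genes were also named after their values were seen.

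Genes of the last embryonic phase were higher in knockout embryos. Of 27 genes of the embryonic sheath, precuticle and elongation 22 rose and 1 fell (median 2.34). The sheath gene noah-1 rose by 1.47 ± 0.31, from 2.86 and 2.57 to 4.03 and 4.35, and sym-1 was at 0.83 ± 0.36 and did not pass (adjusted p = 0.0655, and -0.21 under median scaling). Of 22 genes in the list of body-shape cuticle collagens 19 rose and 1 fell (median 2.05), and 2 were above background only on the knockout arrays. The fall was in bli-4, which is not a collagen gene, at -0.35 ± 0.14 (adjusted p = 0.0467). Its probes were called in both directions, from -0.35 to 2.67, so its direction is not settled by this array. The collagen gene dpy-7 rose by 2.73 ± 0.37, from 0.69 and 0.70 to 3.36 and 3.48. The collagen gene sqt-3 was already at 6.20 and 6.11 in wild type and at 7.08 and 7.10 in the knockout, a rise of 0.94 ± 0.13 that was -0.11 under median scaling. A second sqt-3 probe gave 2.77. The hatching protease gene hch-1 rose by 1.19 ± 0.25, from 1.93 and 1.66 to 2.79 and 3.17.

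The other astacin proteases, many of which act on cuticle and other matrix, were higher as well. Of 25 hatching and astacin protease genes tested 22 rose and 0 fell, with a median of 2.30 that was 1.16 with normexp correction and 1.51 with quantile normalization. Of them 5 were above background only on the knockout arrays. The largest rise was in nas-6 (3.42 ± 0.55), which takes part in shaping the pharyngeal cuticle. The moulting protease gene nas-37, below background in wild type, was at least 1.5-fold higher in the knockout, while normexp correction gave -0.23. The median of the list was 2.60 on knockout array 1 and 1.89 on array 2. Of 9 chitinase and chitinase-like genes 5 rose and 2 fell (median 1.79, or 0.62 with normexp correction and 0.84 with quantile normalization): cht-1 fell by 1.19 ± 0.44 (adjusted p = 0.0366) from 5.50 and 5.28 to 3.92 and 4.48, and cht-2 rose by 3.16 ± 0.44. The chitinase shares were 55.6% and 22.2%, beside 44.7% and 40.5% of all genes.

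Genes that respond to fasting and low insulin signalling were mixed in size. Of 25 members 20 rose and 1 fell (median 1.2, or 0.52 with normexp correction). Of them 4 were above background only on the knockout arrays and so had to be higher. The glyoxylate enzyme gene icl-1, which lets worms turn fat into sugar, rose by 1.2 ± 0.16, from 4.59 and 4.33 to 5.66 on both knockout arrays. The lysosomal lipase gene lipl-5 rose by 3.68 ± 0.20. The fasting-induced acyl-CoA synthetase gene acs-2 was at -0.35 ± 0.30 (adjusted p = 0.301), and cpt-3, a carnitine palmitoyltransferase gene, fell by 2.66 ± 0.28.

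**Figure D3:**
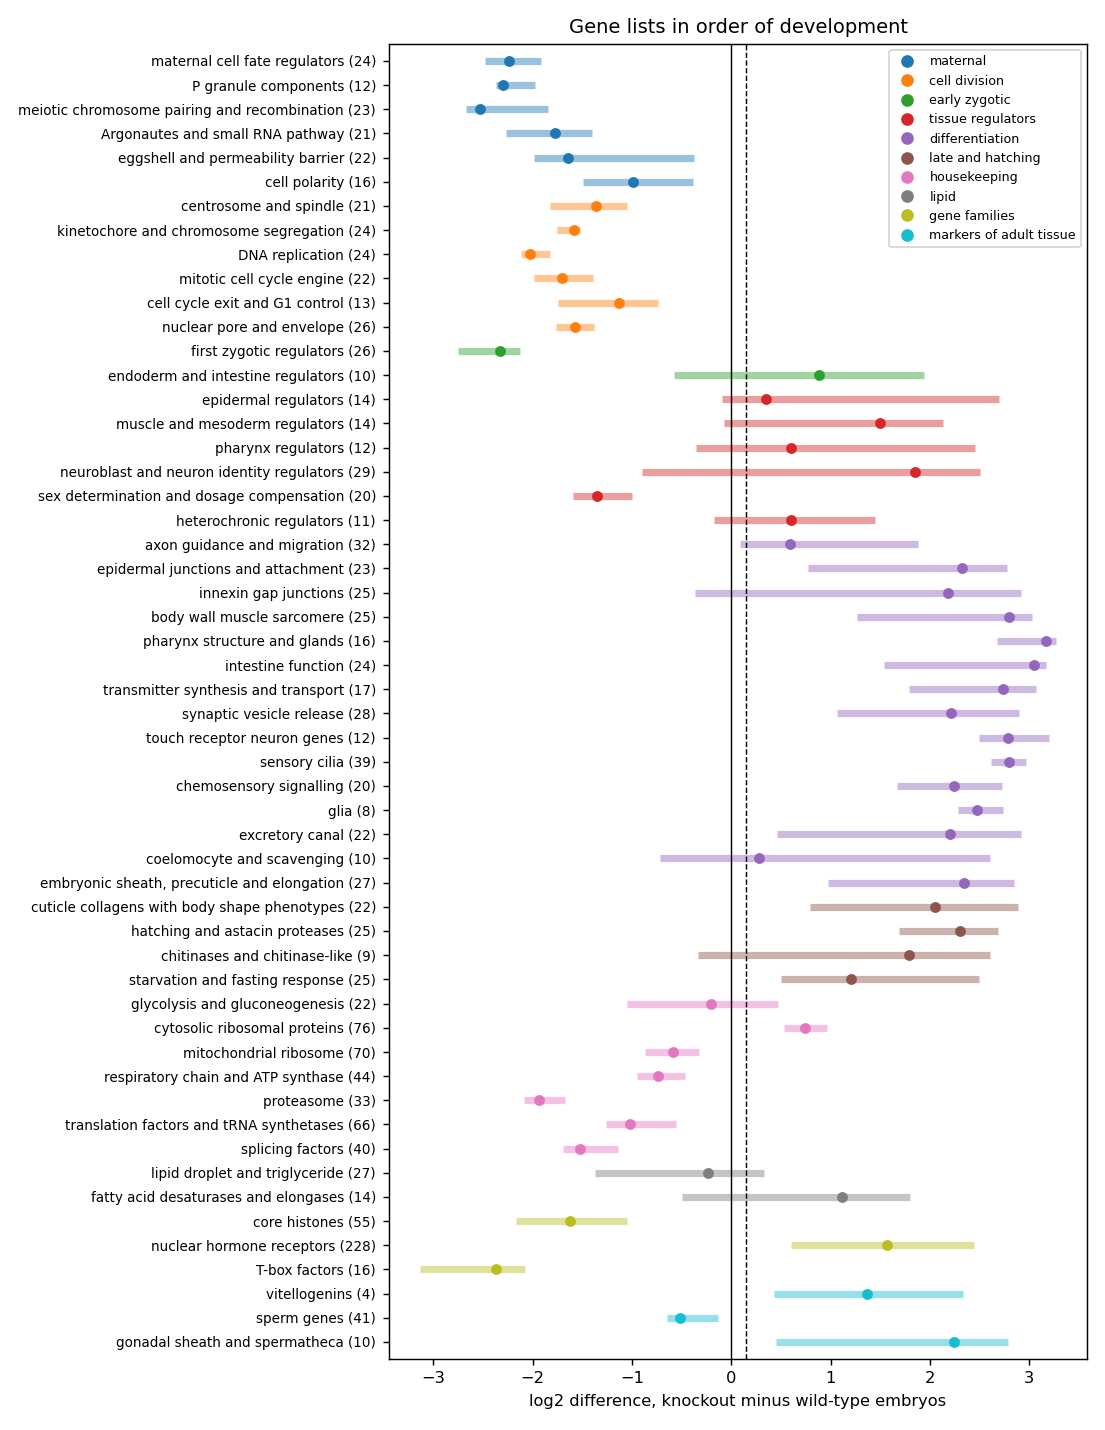
Median (point) and quartiles (bar) of the log2 difference between knockout and wild-type embryos for 54 gene lists, ordered by developmental phase from top to bottom and coloured by phase, with the number of genes tested in brackets and the all-gene median of 0.15 as a dashed line. The maternal and cell division medians lie between -2.53 and -0.99 and those of differentiated tissues between 0.28 and 3.17. Under median scaling the medians of endoderm, epidermal, pharynx and heterochronic regulators, axon guidance, coelomocyte and cytosolic ribosomal genes turn below 0, and under quantile normalization that of the lipid droplet list turns above 0.

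Housekeeping machines did not move as 1 group. All 33 proteasome genes fell, with a median of -1.94. By their brightest probe all 40 splicing factor genes fell, with a median of -1.52. The splicing factor genes rsp-3 and rsp-6, named after their values were seen, had probes called in both directions, from -1.71 to 0.55 and from -1.39 to 0.69. The proteasome gene pas-5 fell by 2.36 ± 0.15, from 5.13 and 5.23 to 2.73 and 2.92, with no overlap between groups. Of 66 translation factor and tRNA synthetase genes 55 fell and 1 rose (median -1.02, or -0.62 with quantile normalization), and of 70 mitochondrial ribosome genes 49 fell and 2 rose (-0.59, or -0.22). The elongation factor gene eef-2 was at 6.40 and 6.30 against 6.20 and 6.26 and did not pass (-0.13 ± 0.14, adjusted p = 0.405). Cytosolic ribosomal protein genes were the exception: 66 of 76 rose and 2 fell, with a median of 0.74, which is 0.60 above the all-gene median and which turned to -0.31 under median scaling.

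Isoforms and paralogs within these machines differed in direction. Of 44 respiratory chain and ATP synthase genes 38 fell and 4 rose (median -0.74, or -0.39 with quantile normalization). The ATP synthase gene asb-1, the germline copy of subunit b, was at 4.32 and 4.44 in wild type and at 1.92 and 2.15 in the knockout, a fall of 2.34 ± 0.15. The general copy asb-2 was at 3.64 and 3.56 against 4.05 and 3.91, a rise of 0.38 ± 0.13 (adjusted p = 0.0286). The copies lay on opposite sides of 0, and the asb-2 rise is smaller than the shift of median scaling. In glycolysis 7 of 22 genes rose and 10 fell (median -0.20), shares of 31.8% and 45.5% beside 44.7% and 40.5% of all genes. The glyceraldehyde phosphate dehydrogenase gene gpd-1 fell by 2.38 ± 0.21, from 5.19 and 5.25 to 2.70 and 2.97, and gpd-4 by 2.19 ± 0.17, while gpd-3 rose by 1.12 ± 0.15, from 3.63 and 3.55 to 4.83 and 4.59. The aldolase gene aldo-1 rose by 1.61 ± 0.19 and aldo-2 fell by 1.00 ± 0.14. The ribosomal protein gene rpl-11.2 rose by 1.54 ± 0.13 and rpl-11.1 was at -0.10 ± 0.14 (adjusted p = 0.520). The 3 rpl-11.1 probes ran from -0.86 to -0.10. The copies asb-2, gpd-3, gpd-4, aldo-2 and rpl-11.1 were named after their values were seen, and cross-hybridisation between copies was not measured.

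Lipid genes, the class in which seipin itself belongs, showed no shared direction. Of 27 lipid droplet, triglyceride and phospholipid genes 6 rose and 12 fell, with a median of -0.23 that was 0.01 under quantile normalization. These were shares of 22.2% and 44.4%, beside 44.7% and 40.5% of all genes. The droplet coat gene plin-1, the worm perilipin, fell by 1.47 ± 0.18, from 2.41 and 2.56 to 0.99 and 1.05. The intestinal droplet dehydrogenase gene dhs-3 rose by 1.95 ± 0.19, from -0.43 and -0.63 to 1.63 and 1.22. Neither gene had overlapping groups, and they moved in opposite directions. Of 14 fatty acid desaturase and elongase genes 9 rose and 3 fell, shares of 64.3% and 21.4%. Their median was 1.12, or 0.58 with normexp correction and 0.64 with quantile normalization. The omega-3 desaturase gene fat-1 fell by 1.77 ± 0.15, from 4.31 and 4.40 to 2.50 and 2.66, and the elongase gene elo-1, which acts in the same route to long polyunsaturated acids, fell by 1.95 ± 0.15. The desaturase gene fat-2, earlier in that route, rose by 1.93 ± 0.19, from -2.11 and -2.18 to -0.07 and -0.36, and elo-4 rose by 2.49 ± 0.30.

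Histone genes fell with the dividing-cell lists. Of 55 histone genes 50 fell and 4 rose, with a median of -1.62. The largest fall was in the replication-dependent histone gene his-47 (-3.24 ± 0.19). The 4 that rose were his-71, a replacement histone H3 gene used outside DNA replication, by 1.84 ± 0.15, from 0.75 and 0.63 to 2.60 and 2.45, the linker histone gene hil-7 (2.24 ± 0.18), his-41 (1.88 ± 0.13) and his-35 (1.75 ± 0.13). The last 2 were named after their values were seen.

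Transcription factor families split by class. Of 228 nuclear hormone receptor genes 175 rose and 19 fell, with a median of 1.57 that was 0.73 with normexp correction and 0.96 with quantile normalization, and 26 of them were above background only on the knockout arrays. The moulting regulator gene nhr-23 was at -0.04 and 0.22 against -0.14 and 0.06 and did not pass (-0.13 ± 0.17, adjusted p = 0.479). The early embryonic receptor gene nhr-2 fell by 1.86 ± 0.46 (adjusted p = 0.00732), and nhr-73 rose the most, by 5.01 ± 0.14, from -5.54 and -5.53 to -0.43 and -0.63. Of 16 T-box genes 15 fell and 1 rose (median -2.37). The rise was in tbx-2, which acts in pharyngeal muscle, by 0.93 ± 0.17, and it turned to -0.12 under median scaling.

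Families defined by a shared gene name prefix were also counted, with 68 families of at least 20 tested members. The families with the highest share of rises were ptr, relatives of the Patched receptor (20 of 21), twk potassium channels (36 of 40), flp neuropeptides (26 of 29), gtnt (33 of 37), cutl cuticlin-like genes (24 of 27), npr neuropeptide receptors (37 of 42), nssp (64 of 73) and rps ribosomal proteins (27 of 30). Some members entered the test only because the knockout arrays were above background, and these had to be higher: 9 of 40 in twk, 13 of 37 in gtnt, 13 of 42 in npr, 10 of 73 in nssp, 2 of 21 in ptr and 1 of 29 in flp, with 0 in cutl and rps. The rps median of 0.74 turned to -0.31 under median scaling, while the medians of the other 7 stayed above 0 under each scaling tried. The families with the highest share of falls were eif translation initiation factors (25 of 25), npp nuclear pore proteins (26 of 26), mdt Mediator subunits (19 of 20), his histones (43 of 47), fbxb F-box genes (95 of 106), sdz (27 of 31), mrpl mitochondrial ribosomal proteins (31 of 41) and vps vacuolar sorting genes (24 of 33). Their medians ran from -2.19 for sdz to -0.61 for mrpl. The most even were spe, with 10 rises and 10 falls, srh chemoreceptors (20 and 20), tag (21 and 24) and rab GTPases (8 and 9). Their shares ran from 40% to 43.5% for rises and from 42.6% to 46.2% for falls, beside 44.7% and 40.5% of all genes. Of 47 srh genes 20 were above background only on the knockout arrays and 10 only on the wild-type arrays. The direction of these srh genes was set by the filter. The fbxa family, a larger relative of fbxb that was chosen after its values were seen, had 58 rises and 43 falls among 128 genes, shares of 45.3% and 33.6% beside 44.7% and 40.5% of all genes. Of the fbxa genes 24 were above background only on the knockout arrays and 3 only on the wild-type arrays. The fbxa median of 0.32 was -0.62 with quantile normalization, -0.73 with median scaling and -0.07 with normexp correction.

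The 2 knockout samples were not equally far from wild type. Their differences from the wild-type mean followed each other across genes (r = 0.987 over 15410 genes, which share 2 wild-type arrays and are not independent replicates). Knockout array 1 had the larger difference in 87.5% of the called genes. Among the 10614 genes called with a change of at least 2-fold, the median ratio of the array 2 difference to the array 1 difference was 0.861. The median rise was 2.60 on array 1 and 2.21 on array 2, and the median fall -1.53 and -1.29. The gap was wide in muscle, neuron and intestine genes: the touch neuron median was 3.14 against 2.44 and the intestine median 3.28 against 2.71. It was narrow in sensory cilia (2.86 and 2.75) and in cytosolic ribosomal proteins (0.75 and 0.73, both below 0 under median scaling). Tissue regulators were uneven: the medians were 1.49 and 1.51 for muscle and mesoderm, 1.71 and 1.95 for neuroblasts and neurons, 0.73 and 0.48 for heterochronic genes, and -1.49 and -1.23 for sex determination. These differences between single arrays carry no test.

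**Figure D4:**
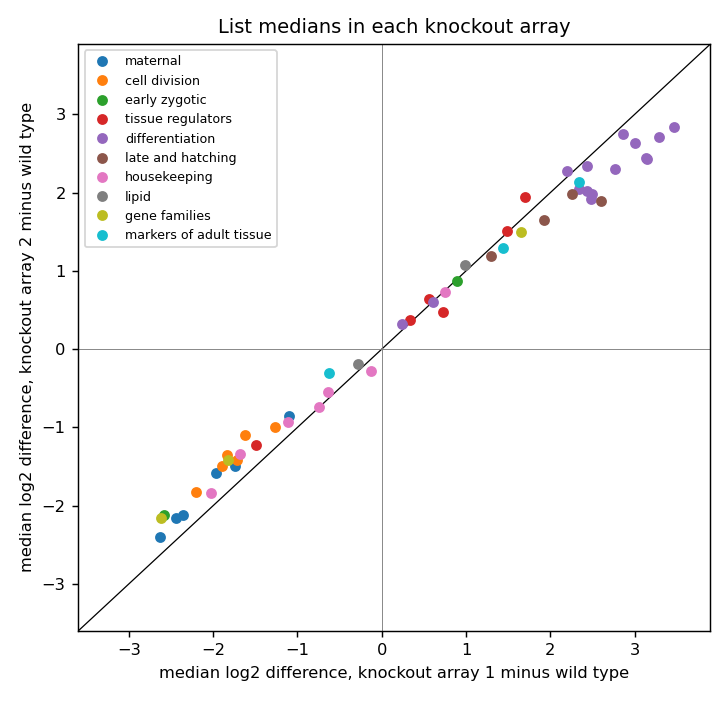
Median log2 difference from the wild-type mean on knockout array 1 (horizontal axis) and knockout array 2 (vertical axis) for 54 gene lists, coloured by phase, with the line of equal values. Lists of differentiated tissues lie below the line at the upper right and maternal and division lists above it at the lower left, so array 1 is the farther from 0 in most of them.

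The chromosomes differed in their balance of rises and falls. On the X chromosome 62.6% of 2230 tested genes were called higher and 22.3% lower, with a median of 1.55. On chromosome V the shares were 53.0% and 32.01% of 3174 genes, with a median of 0.97 that was -0.08 under median scaling. On chromosomes I and III 34.6% and 33.7% were called higher and 50.3% and 51.5% lower. On X 230 of 2230 genes and on V 414 of 3174 were above background only on the knockout arrays. On I and III these were 143 of 2451 and 102 of 2269, and such genes had to be higher. The X median was the highest of the 6 under each of the scalings and corrections tried, from 0.50 with median scaling to 1.55. The chromosomes carry different classes of genes, and their part in this balance was not tested. Among short non-coding RNA genes all 6 snRNA genes fell, and of 13 snoRNA genes 9 fell and 0 rose.

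**Figure D5:**
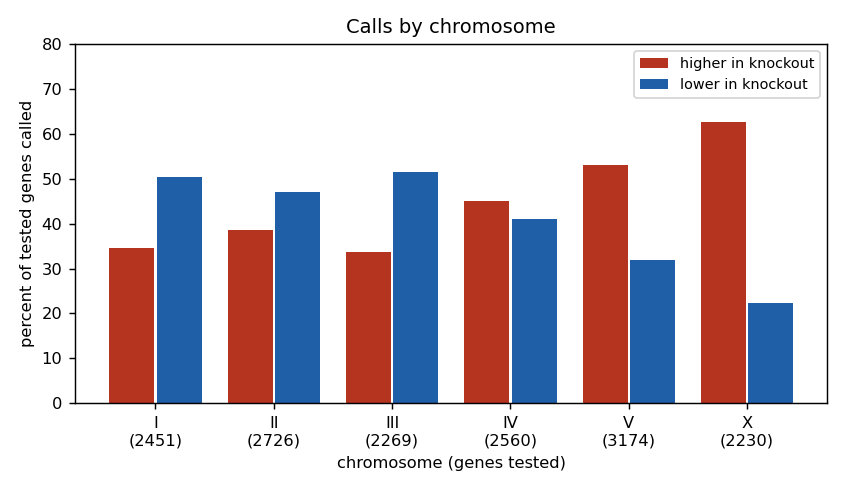
Percentage of tested genes called higher (red) or lower (blue) in knockout embryos on each chromosome, with the number of genes tested in brackets. The X chromosome shows 62.6% higher and 22.3% lower, and chromosome III shows 33.7% higher and 51.5% lower, with median scaling lowering all differences by 1.05. Counted as tested are genes above background only on the knockout arrays, which had to be higher.

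Some genes were seen in 1 genotype alone. Of the genes tested, 1290 were above background on both knockout arrays and on no wild-type array, and 1224 of these were called higher. In the opposite class were 210 genes, of which 200 were called lower. Genes of either class entered the test only through the genotype where they were bright, so their direction was set by the filter. For scav-5, a scavenger receptor gene, the signal was 9.17 and 12.2 units in wild type and 642 and 417 units in the knockout, a rise of at least 23.5-fold. The next bounds were in gtnt-24 (at least 14.4-fold), the lectin gene clec-33 (at least 13.97-fold), daf-7 (at least 11.7-fold), which encodes a TGF-beta ligand made in a sensory neuron pair, and gasr-8 (at least 11.6-fold). In the knockout, sri-14 was at least 6.36-fold lower, str-9 at least 5.17-fold, nspd-9 at least 5.10-fold and str-68 at least 5.09-fold. The wild-type arrays of the chemoreceptor genes sri-14 and str-9 were far apart, at 155 and 34.3 units for sri-14 and at 30.5 and 115 units for str-9.

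A smaller set of genes was measured tightly and stayed near 0. For 736 genes the 95% confidence interval of the difference lay within 1.5-fold in either direction. The mitochondrial elongation factor gene tufm-1 was at 1.13 and 1.12 in wild type and at 1.14 and 1.11 in the knockout, with an interval from -0.29 to 0.29. The chaperonin gene cct-6 was at 2.56 and 2.66 against 2.61 and 2.61, with an interval from -0.31 to 0.30. The others with the narrowest intervals were calm-1, pqn-83, sid-3, which acts in the spread of double-stranded RNA, sma-9, which acts in body size signalling, oxa-1, nhr-28, sfxn-2 and sucl-1, which encodes a subunit of succinyl-CoA ligase. That they lie near 0 depends on the 75th percentile as the reference: under median scaling tufm-1 was at -1.05, and under quantile normalization cct-6 was at 0.72.

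Markers of yolk, sperm and adult cuticle were far lower in embryo than in adult samples, while those of the gonadal sheath and spermatheca were not, and their part in the results was not tested. The summed signal of the 5 vitellogenin genes on the array was 0.118 and 0.112 times the array's 75th percentile in wild-type embryos and 0.336 and 0.273 times in knockout embryos, against 489 to 639 times in the adult samples. Of 4 vitellogenin genes tested 3 rose and 0 fell, with vit-1 at 2.63 ± 0.23 and vit-2 at 2.24 ± 0.19. Summed in the same way, 54 sperm genes gave 4.06 and 4.41 for wild-type embryos and 2.59 and 3.44 for the knockout, against 2184 to 2269 in adults, and of 41 tested 21 fell and 7 rose (median -0.52, or -1.36 with quantile normalization). The 5 adult cuticle collagen genes summed to 0.0613 and 0.0495 in wild type, with 0.0766 and 0.0640 for the knockout, against 166 to 214 in adults. Of these, col-19, bli-1 and bli-2 were not well above background on any embryo array. The 11 genes of the gonadal sheath and spermatheca summed to 8.65 and 8.33 in wild type, with 8.10 and 7.99 for the knockout, against 11.2 to 13.7 in adults. Of 10 tested 7 rose and 2 fell (median 2.24, or 1.39 with quantile normalization). For the sheath gene lim-7 the signal was 228 and 220 units in wild-type and 1973 and 1705 units in knockout embryos, and between 494 and 866 units in the adult samples.

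In the young adults, which were on another slide, the same genotype difference was far smaller. The quartiles of the knockout minus wild-type difference over 15015 genes were -0.13 and 0.09 there, against -1.19 and 2.25 in embryos. Whether the embryo and adult differences differ was not tested here.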

How the data were processed

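Cy3-labelled total RNA (0.2 µg per sample) was measured on Agilent single-colour arrays, per the labels' protocols. The deposited scanner files give each spot's intensity, extracted with Agilent Feature Extraction (version 10.7.1.1, per the submitters' processing notes). Per the file headers, the processed intensity is background-subtracted within its array. In the deposited value table, at least 99.9931% of the log2 values per array lay within 0.01 of the log2 processed intensity scaled to the array's 75th percentile and centred on the wild-type arrays of that stage.

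Spots of a probe were averaged on the log2 scale after control spots and outlier spots were dropped (6 to 9 outliers per embryo array, 0 saturated), and each array's 75th percentile was subtracted. Sequence names identified 31500 probes and transcript accessions 3674, which left 8429 unnamed. No positions are given, because the array design uses an older genome build than the gene table at hand. The brightest probe of a gene was used, and genes were tested if both arrays of either embryo group were well above background for it. A limma 3.58.1 model (R 4.3.3) with 1 mean per group was fitted to all 8 arrays. Its moderated test was two-sided, with 4 residual and 2.64 prior degrees of freedom and Benjamini-Hochberg adjustment over all 15410 genes. The fit lacked 1 or more arrays for 7 genes. If neither array of a group was above background for a called gene, a lower bound replaced the fold. It sets the mean of the bright group against, for each dim array, the higher of the probe's own signal and the lowest signal well above background, averaged as log2 values. Plots used matplotlib 3.10.9 (Python 3.11.15).

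The comparison, its members and the 55 gene lists were chosen with earlier results of these data known. Lists are described by counts and medians beside those of all genes, with no test of a list. Named were seip-1; of each list its first 2 entries and its called members with the largest rise and fall, above background on 1 or more arrays in both groups and with groups that do not overlap; the 5 largest bounds per direction; the 10 genes with intervals closest around 0; and the prefix families with the highest, lowest and most even shares. Genes outside this rule are marked in the text. Alternatives covered background correction, normalization, filters, probe choice, samples in the fit, a replicate block, the prior, array weights, each array left out, and the deposited table. The normexp correction used the median spot signal in place of the planned mean, with the median background. Scaling over probes above background on all 8 arrays was added after seeing the data. The fit was tested on simulated data with few changed genes and no scaling step, which does not bear on the choice of scaling.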

Additional observations from a re-analysis of the deposited data

Results flagged for a closer look

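Probes that could not be given a gene name were used in no comparison, and 583 of 8429 of them were well above background on both knockout embryo arrays and on neither wild-type embryo array. The opposite pattern was seen in 130 of these probes, and 3356 were above background on all 4 embryo arrays. The first number was picked out because it is a signal in data outside the main measurement.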

How the results depend on the processing

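The counts of all genes called, called higher and called lower stayed within 1.5 times their reported values under all 20 alternatives, from 11987 to 13671 called. Leaving out each array in turn gave 11987 to 13375 calls. The replicate number as a replicate block gave 12798 calls, 6768 higher and 6030 lower. Embryo samples with the same number did not deviate together (r = 0.02 between pairs across genes). Young adult samples with the same number tended to deviate in opposite directions (r = -0.51 over 15410 genes). The adult arrays are part of the fit, and the cause of that pattern was not tested. The split of calls was 5729 higher and 6540 lower with normexp correction, 6344 and 6264 with quantile normalization, 5440 and 6004 with only probes above background on all 4 embryo arrays, and 6373 and 7015 with scaling over probes above background on all 8 arrays. The level of seip-1 kept its call under each alternative run on it. Of 223 named genes, 197 of which were called, 153 kept their direction and their side of the threshold under all alternatives run on them.

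Median scaling, which refers each array to its median probe, turned the medians of the lists of endoderm (-0.17), epidermal (-0.70), pharynx (-0.45) and heterochronic regulators (-0.44), axon guidance (-0.45), coelomocyte (-0.77) and cytosolic ribosomal genes (-0.31). The coelomocyte median was -0.014 over probes above background on all 8 arrays, and the lipid droplet median 0.0081 with quantile normalization. Named genes that turned sign under median scaling, and passed the test before or after it, were aars-1 (-0.62), cwn-1 (-0.32), elt-2 (-0.0066), elt-3 (-1.03), fzr-1 (-0.66), gas-1 (-0.47), hlh-1 (-0.83), klp-7 (-0.53), mrpl-22 (-0.057), nhr-25 (-0.45), pha-4 (-0.78), pqn-83 (-1.04), sfxn-2 (-1.03), sid-3 (-1.03), sma-9 (-1.03), sqt-3 (-0.11), tbx-2 (-0.12), tufm-1 (-1.05), unc-120 (-0.16) and unc-6 (-0.0056). Under quantile normalization they were aars-1 (-0.00018), bli-4 (0.20), cct-6 (0.72), hmp-2 (0.16), lin-28 (0.48), mec-7 (0.63), sma-9 (-0.35), snb-1 (0.15), sucl-1 (0.72) and unc-40 (0.37). The mean over probes turned bli-4 (1.70) and tdc-1 (0.36), and normexp correction turned nas-37 (-0.23). List medians moved by over 1.5 times under normexp correction or quantile normalization stand beside most of the lists concerned. The rest were adult cuticle collagens (0.25 and 0.52) and vitellogenins (0.43 and 0.47) under both, and coelomocyte genes (0.45) and glycolysis (-0.13) under quantile normalization. Over probes above background on all 4 embryo arrays the medians of epidermal (0.09), pharynx (0.27) and heterochronic regulators (0.25) were lower too. Apart from the shift that median scaling makes by construction, the cause was not tested.

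Embryo age was not recorded in the sources used here, and the 4 embryo arrays came from 1 slide. Of 4587 genes with 2 or more measured probes, 80 had probes called in both directions. Besides bli-4, tdc-1, tra-1, rsp-3 and rsp-6 they included nuo-5, sdha-1, ucr-1, rpl-18A, rpl-24, rpl-29, par-5, lin-42, ric-7, pyc-1, eef-1A.2 and acs-22. The latter were named after their values were seen, and all counts use the brightest probe. Dim genes carry bounds only, and 2 arrays per group limit all errors given.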

Other observations

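Further gene families were looked at after their values were seen. Of 132 genes with the collagen prefix col 101 rose and 6 fell, with a median difference of 2.27. Of 128 C-type lectin genes (clec), many of which respond to microbes, 86 rose and 21 fell, with a median of 2.14 that was 0.29 after normexp correction. Of these lectin genes 69 were above background on all 4 embryo arrays, and 36 entered the test only through the knockout arrays and so had to be higher. The same held for 13 of the col genes. Of 21 saposin-like genes (spp), which encode small membrane-active proteins of the gut, 17 rose and 1 fell, with a median of 2.64, and 3 entered only through the knockout arrays. Among 650 pseudogenes 218 were higher and 267 lower, with a median of -0.18. The shares were 33.5% and 41.1%, beside 44.7% and 40.5% of all genes.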
